A study of Mus musculus with 6 samples.

Results

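Genes of the blood vessel wall were followed in the lumbar cord of E15.5 mouse embryos labelled wild-type or null for Tnc, the gene for the extracellular matrix glycoprotein tenascin-C. They comprise 48 genes chosen by name as markers of endothelium, endothelial junctions, barrier transport, angiogenic signalling and pericytes. The choice was made with earlier results of these data known. All 48 were measured, out of 19938 genes with a single symbol. Eltd1 was found under its current symbol, Adgrl4. Every one of the 48 was represented by 1 transcript cluster (the set of array probes summarised for a gene), so no choice between clusters was needed. By role, the genes fell into 13 pan-endothelial genes, 5 junction genes, 6 transcription factors, 7 angiogenic receptors, 6 angiogenic ligands and secreted factors, 5 barrier transporters and 6 pericyte genes.

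The study hybridised total RNA of 6 cord samples, 3 labelled wild-type and 3 labelled TNC -/-, each to its own whole-transcript oligonucleotide array. Knockout stands below for the arrays labelled TNC -/-. All are of strain SV129, and the labels call the samples of a group biological replicates. The sources used here do not say how the Tnc allele was made, whether embryos were pooled or which litters they came from. The title of the series concerns patterning genes and astrocytes, so the vessel genes belong to no named aim of the study.

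Vessels enter the embryonic spinal cord from a plexus around it, drawn by VEGF from neural progenitors that acts on endothelial VEGF receptors. Neural Wnt7a and Wnt7b, through the endothelial receptor complex of Gpr124 and Reck, then switch on barrier properties, namely tight junctions of claudin-5 and occludin and carriers such as the glucose transporter Glut1 (Slc2a1). Endothelial PDGF-B recruits pericytes that carry PDGF receptor beta, and angiopoietins acting on Tek, with its relative Tie1, steady the vessel wall. In whole tissue RNA such genes report the amount of vessel as well as its state. Fewer cells of a type and less RNA per cell cannot be told apart here.

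Promoter sequence is shown for 4 genes whose values did not overlap between the groups, so that the stretch searched for the letters of ETS factor sites can be seen. ETS factors are the family of Erg and Fli1, which runs endothelial transcription. RefSeq windows (GRCm38.p6) existed for 29 of the 48 genes. The 150 bases before the gene start are printed 5′ to 3′ on the gene's strand, with any match to AGGAAG or CGGAAG, or to their reverse complements CTTCCT and CTTCCG, in capitals. They come from chr2:32646445-32646594 on the plus strand for Eng, chr3:151437732-151437881 on the plus strand for Adgrl4, chr4:118489850-118489999 on the minus strand for Tie1 and chr11:78498970-78499119 on the plus strand for Vtn.
Eng: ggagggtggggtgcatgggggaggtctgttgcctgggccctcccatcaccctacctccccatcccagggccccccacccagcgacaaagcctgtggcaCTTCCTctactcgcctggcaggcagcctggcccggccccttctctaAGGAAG
Adgrl4: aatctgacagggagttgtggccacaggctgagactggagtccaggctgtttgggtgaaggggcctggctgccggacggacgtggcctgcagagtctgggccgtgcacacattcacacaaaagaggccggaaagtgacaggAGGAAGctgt
Tie1: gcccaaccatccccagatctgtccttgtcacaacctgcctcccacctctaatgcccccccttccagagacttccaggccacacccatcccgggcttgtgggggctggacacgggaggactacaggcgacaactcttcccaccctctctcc
Vtn: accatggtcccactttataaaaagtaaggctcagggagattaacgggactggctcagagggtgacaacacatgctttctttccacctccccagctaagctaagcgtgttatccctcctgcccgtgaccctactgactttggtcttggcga
Eng held 2 such matches, Adgrl4 held 1, and Tie1 and Vtn held none in this stretch. Across the pan-endothelial, junction, factor and receptor genes, 10 of the 17 with a window held a match, or 58.8%, against 33.7% of the 15614 tested genes that have one. By role these were 5 of 6 pan-endothelial, 1 of 3 junction, 2 of 2 factor and 2 of 6 receptor genes. Over all roles 13 of the 29 held a match, or 44.8%. A gene with several windows counted if any of them held a match. None of the 5 pericyte genes with a window held a match. These shares describe letters in a short window and carry no test.

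Taken over all roles, the vessel genes stood slightly higher in the knockout arrays. The difference between group means was above 0 for 43 of the 48 genes, where 46.4% of all tested genes lay above 0. Its median was 0.11 log2 units, against -0.0069 over all tested genes. None of the 48 passed the test over all genes in limma with Benjamini-Hochberg adjustment (threshold 0.05), nor did any other gene (0.00%). An unadjusted p under 0.05 was reached by 7 of the 48 in the higher direction, where 0.933% of all genes reached it, and by 0 in the lower direction, where 0.767% did. For 12 of the 48 every knockout value exceeded every wild-type value, against 3.18% of all genes. Angpt2 alone separated in the lower direction, against 2.64% of all genes. With 3 arrays against 3 the exact two-sided permutation test cannot give a p below 0.1, and it gave 0.1 for each of these 13 genes. Many of the 48 genes are expressed in the same vessels and vary together, so their number is not a number of independent observations. Some are also made by other cells of the tissue. The genes were also chosen with earlier results of these data known. The shares above therefore describe them and lend no independent support.

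**Figure D1:**
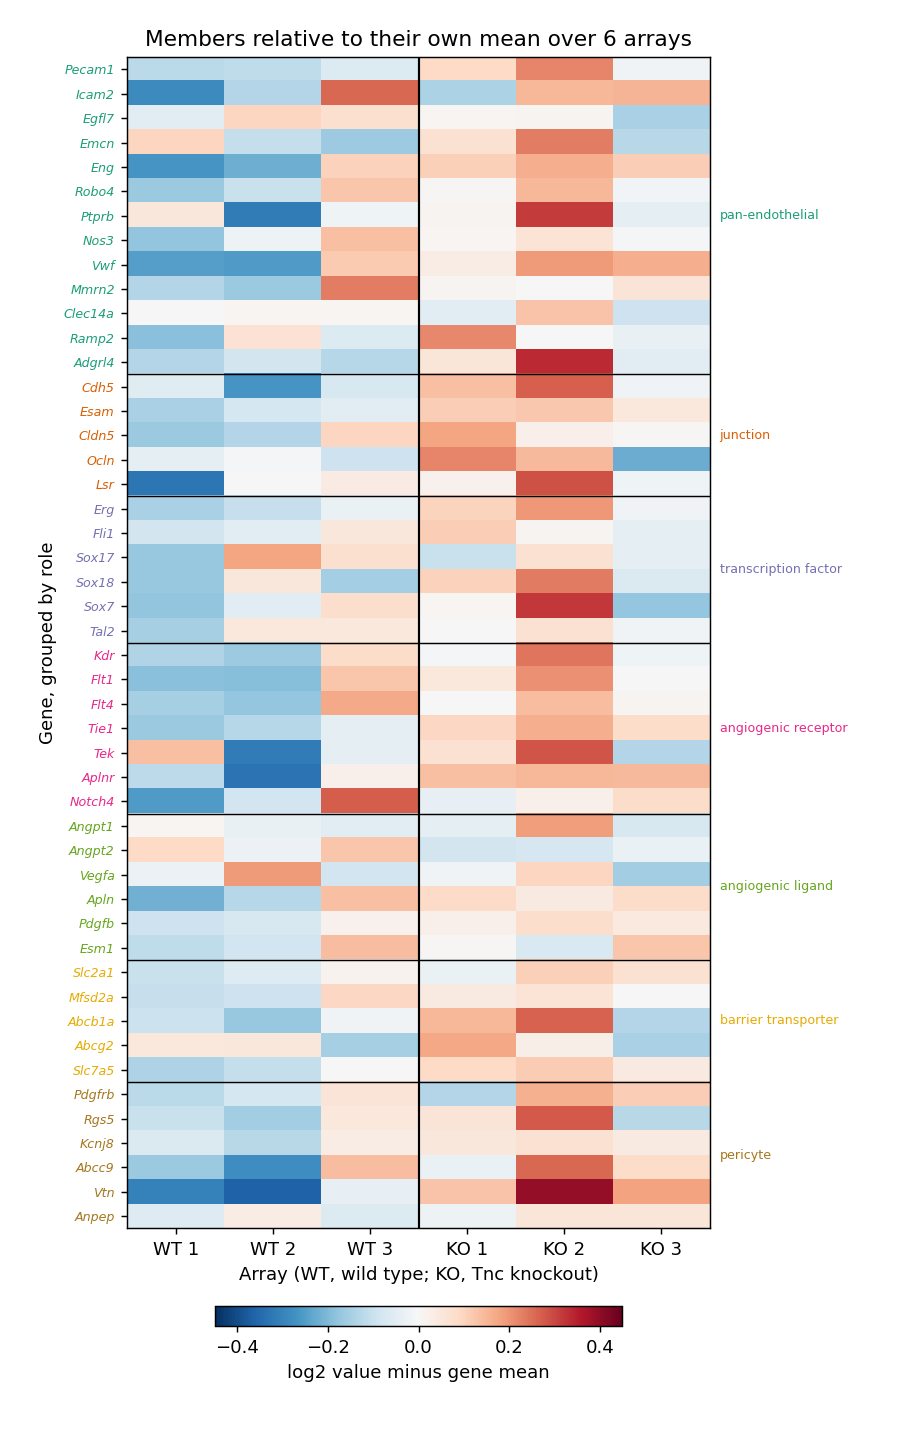
Heat map of the 48 genes (rows, grouped by role) on the 6 arrays (columns), coloured by the log2 value minus that gene's mean over the 6 arrays. Wild-type replicates 1 and 2 are mostly below the gene means, knockout replicate 2 is mostly above them, and wild-type replicate 3 and knockout replicates 1 and 3 lie between.

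The arrays of a group differed among themselves by about as much as the groups did. Averaged over the 48 genes, the deviation from the gene mean was -0.12, -0.10 and 0.03 in wild-type replicates 1, 2 and 3. In knockout replicates 1, 2 and 3 it was 0.04, 0.14 and -0.0053. Wild-type replicate 3 thus stood above knockout replicate 3, and the groups overlapped in this average. Wild-type replicate 3 was the highest wild-type array for 33 of the 48 genes (68.8%), and for 45.4% of all genes. Knockout replicate 2 was the highest knockout array for 36 of the 48 (75.0%), and for 26.7% of all genes. Leaving out knockout replicate 2 lowered the median difference to 0.06, and leaving out wild-type replicate 3 raised it to 0.18. The difference stayed above 0 whichever array was left out for 34 of the 48 genes, as it did for 19.3% of all genes. For 35 of the 48 the difference moved by over 1.5 times, or turned sign, with at least 1 array left out.

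A few facts of the series bear on these values. Tnc read 10.72, 10.22 and 10.02 in wild type and 9.64, 9.76 and 9.47 in knockout, a log2 difference of -0.69 (SE 0.17) with no overlap. The knockout signal was thus 61.8% of wild type (95% confidence interval 46.9% to 81.4%), so a large part of the Tnc signal remained on the arrays labelled null. No source at hand tells which part of the gene the probes cover or the allele removes, which makes Tnc a partial check of the labels. The cord markers Hoxc10 and Hoxd10 and the neuronal Elavl3 were strongly expressed on all arrays, with lowest values of 11.14, 12.12 and 12.62. The sexes were unevenly spread. Xist, the X-inactivation transcript, read 5.44 and 5.38 in knockout replicates 1 and 3 and at least 11.60 in the other 4 arrays, and the Y-linked genes averaged 8.20 and 7.86 in those 2 arrays and at most 4.48 elsewhere. Knockout replicate 2, highest for most vessel genes, is therefore the only knockout array of the same sex as the wild-type ones, and in the other 2 sex and genotype cannot be told apart. With a sex term, which sets that single array against the wild-type arrays, the median over the 48 genes was 0.20.

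Among the pan-endothelial genes, 11 of 13 lay above 0, with a median of 0.12 and a range from -0.08 to 0.26. Their median stayed above 0 with each array left out, from 0.06 without knockout replicate 2 to 0.18 without wild-type replicate 3. Pecam1 (transcript cluster 10392221, chromosome 11), the adhesion molecule CD31, read 8.04, 8.05 and 8.11 in wild type and 8.26, 8.39 and 8.15 in knockout. The 3 knockout values all exceeded the wild-type ones, knockout replicate 3 by the smallest margin. Its log2 difference was 0.20 with a 95% confidence interval from 0.0091 to 0.39 and an unadjusted limma p of 0.0421. Eng (cluster 10471486, chromosome 2), the TGF-beta co-receptor endoglin, read 9.30, 9.34 and 9.67 in wild type and 9.67, 9.72 and 9.67 in knockout. Wild-type replicate 3 came within 0.0030 of the lowest knockout array, so that this separation is a near tie. The difference of Eng was 0.25 (interval 0.01 to 0.50) with an unadjusted limma p of 0.0430.

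Adgrl4 (cluster 10496872, chromosome 3), an adhesion G protein-coupled receptor of endothelium, read 8.19, 8.24 and 8.19 in wild type and 8.38, 8.66 and 8.28 in knockout. Knockout replicate 2 carried much of its difference of 0.23, which was 0.12 without that array. The remaining pan-endothelial genes overlapped between the groups. Von Willebrand factor (Vwf) differed by 0.26, the receptor phosphatase Ptprb by 0.19, the adrenomedullin receptor component Ramp2 by 0.12 and the sialomucin Emcn by 0.12. With 1 array left out, Ptprb fell to 0.08 (wild-type replicate 2), Ramp2 to 0.05 (knockout replicate 1) and Emcn to 0.03 (knockout replicate 2). Smaller differences were seen for Icam2 (0.11), the guidance receptor Robo4 (0.10), the matrix protein Mmrn2 (0.05) and endothelial nitric oxide synthase, Nos3 (0.04). Egfl7, a secreted factor of growing vessels that hosts a microRNA in its intron, went the other way at -0.08, with an interval from -0.27 to 0.11. Clec14a differed by -0.01 and lay below 6.13 in both groups. That value, the 95th percentile over 1194 receptor genes of smell and pheromone sensing, was taken as a guide to background.

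All 5 junction genes lay above 0, with a median of 0.18 that was 0.10 without wild-type replicate 1. Cdh5 (cluster 10574438, chromosome 8), or VE-cadherin, the adherens junction cadherin of endothelium, read 9.28, 9.07 and 9.26 in wild type and 9.47, 9.60 and 9.32 in knockout. No value overlapped, and the margin between wild-type replicate 1 and knockout replicate 3 was 0.04. Mean levels were 9.20 ± 0.12 for wild type and 9.46 ± 0.14 for knockout (SD, n = 3 each), a difference of 0.26 with an interval from 0.03 to 0.49. Esam (cluster 10584317, chromosome 9), an adhesion molecule of endothelial tight junctions, read 8.58, 8.65 and 8.68 against 8.84, 8.85 and 8.78. Its arrays agreed closely within each group, and its difference of 0.18 (interval 0.02 to 0.35) ran only from 0.16 to 0.21 as single arrays were left out. The unadjusted limma p was 0.0310 for Cdh5 and 0.0296 for Esam.

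Claudin-5 (Cldn5, cluster 10434229, chromosome 16), the main sealing claudin of the barrier, read 10.36, 10.40 and 10.63 in wild type and 10.70, 10.55 and 10.53 in knockout. Wild-type replicate 3 lay within the knockout range, and the other wild-type arrays lay below it. The difference was 0.13, with an interval from -0.09 to 0.36. The tight junction proteins occludin (Ocln) and angulin-1 (Lsr), both also made by epithelia, differed by 0.10 and 0.19 with overlapping groups. For Ocln the knockout arrays spanned 6.12 to 6.56, and 6.12 was the lowest of all 6 values and just below the guide to background.

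Of the transcription factors 5 of 6 lay above 0, including Tal2, which lay below the guide to background. Their median was 0.08. Leaving out wild-type replicate 1 or 3 gave medians of 0.03 and 0.12, and leaving out knockout replicate 2 or 3 gave 0.04 and 0.15. Erg (cluster 10441093, chromosome 16), an ETS factor that maintains endothelial identity, read 7.26, 7.30 and 7.37 in wild type and 7.50, 7.60 and 7.39 in knockout. The groups separated by 0.02 between wild-type replicate 3 and knockout replicate 3, and the means differed by 0.19 with an unadjusted limma p of 0.0502. Fli1, its ETS relative, differed by 0.05. Among the SoxF factors, which act in arterial and lymphatic endothelium, the differences were 0.18 for Sox18, 0.10 for Sox7 and -0.05 for Sox17, with overlapping intervals. The differences of Sox7 and Sox17 turned sign, Sox7 without knockout replicate 2 (-0.03) and Sox17 without wild-type replicate 2 (0.02). Tal2, a basic helix-loop-helix factor, lay below the guide to background and differed by 0.04.

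**Figure D2:**
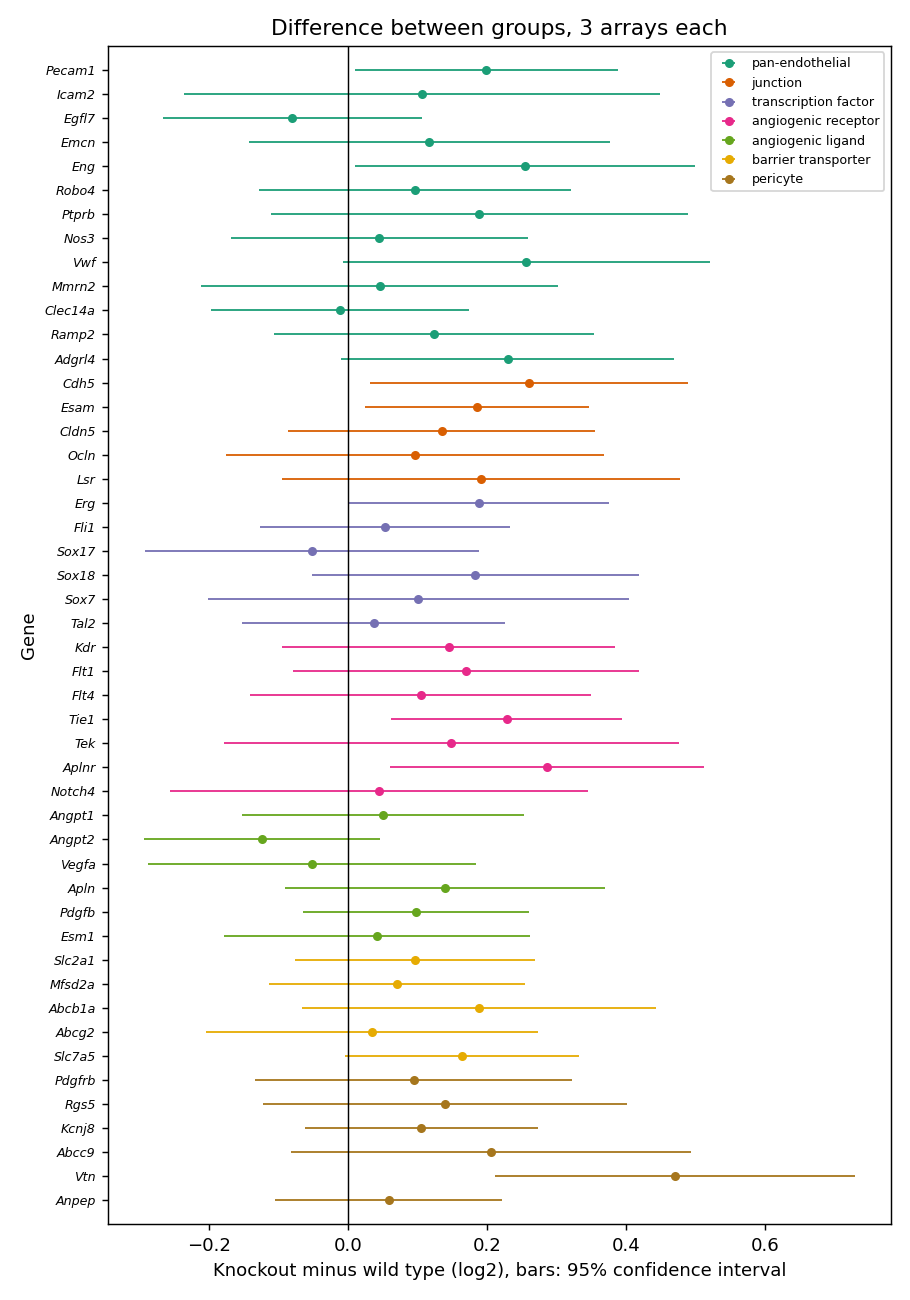
Difference of the group means (knockout minus wild type, log2) for the 48 genes, with 95% confidence intervals from limma, 3 arrays a group, coloured by role. The points lie mostly right of 0, from -0.12 for Angpt2 to 0.47 for Vtn, and 7 intervals lie wholly above 0.

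All 7 angiogenic receptors lay above 0, with a median of 0.15. That median was 0.06 without knockout replicate 2, 0.10 without wild-type replicate 2 and 0.22 without wild-type replicate 3. Aplnr (cluster 10473444, chromosome 2), the apelin receptor of venous and sprouting endothelium, read 9.20, 8.99 and 9.34 in wild type and 9.45, 9.47 and 9.46 in knockout. The knockout arrays were nearly level, and all lay above the wild-type ones. Its levels were 9.18 ± 0.18 and 9.46 ± 0.0074 (SD, n = 3 each), and the difference of 0.29 had an interval from 0.06 to 0.51 with an unadjusted limma p of 0.0194. Tie1 (cluster 10515771, chromosome 4), the orphan relative of the angiopoietin receptor, read 8.46, 8.50 and 8.58 against 8.72, 8.79 and 8.71. The gap between the groups, 0.13, was about the range of the wild-type arrays. The difference was 0.23 (interval 0.06 to 0.39), the unadjusted limma p was 0.0135, and the difference stayed between 0.20 and 0.26 with any 1 array left out. Tie1 lies on the same chromosome as Tnc, as do Tek, Slc2a1, Mfsd2a and Tal2.

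Tek (cluster 10505954), the angiopoietin receptor Tie2, read 7.90, 7.45 and 7.72 in wild type and 7.84, 8.05 and 7.64 in knockout. The groups overlapped widely, and the difference of 0.15 fell to 0.03 when wild-type replicate 2 was left out and to 0.04 for knockout replicate 2. Kdr (cluster 10530692, chromosome 5), the main VEGF receptor, read 8.36, 8.33 and 8.58 against 8.49, 8.74 and 8.48, and wild-type replicate 3 exceeded 2 of the 3 knockout arrays. Flt1 (cluster 10535807, chromosome 5), the VEGF receptor that also acts as a decoy, read 8.19, 8.19 and 8.51 against 8.43, 8.59 and 8.38. The same wild-type array again lay inside the knockout range. Kdr differed by 0.14 (interval -0.10 to 0.38) and Flt1 by 0.17 (interval -0.08 to 0.42). Flt4, the VEGF-C receptor, differed by 0.10 and Notch4, an endothelial Notch receptor, by 0.04 (-0.07 without wild-type replicate 1).

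Of the ligands and secreted factors 4 of 6 lay above 0, with a median of 0.05 that was 0.03 without knockout replicate 2 or wild-type replicate 1 and 0.08 without wild-type replicate 3. Vegfa (cluster 10451198, chromosome 17), made in the cord chiefly by neural cells, read 9.67, 9.89 and 9.61 in wild type and 9.68, 9.79 and 9.54 in knockout. The groups overlapped, and the difference was -0.05 with an interval from -0.29 to 0.18. Angpt2 (cluster 10577315, chromosome 8), the vessel-destabilising angiopoietin of sprouting endothelium, read 6.25, 6.13 and 6.29 against 6.08, 6.09 and 6.13. All these values are close to the guide of 6.13, the separation was 0.0007, and the difference of -0.12 had an interval from -0.29 to 0.05. Angpt1, the Tek agonist of mural cells, differed by 0.05, with means of 6.18 and 6.23 that are also close to the guide.

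Pdgfb (cluster 10430660, chromosome 15), the endothelial growth factor for pericytes, read 8.82, 8.84 and 8.94 in wild type and 8.94, 8.99 and 8.96 in knockout. Wild-type replicate 3 fell short of the lowest knockout array by 0.0026, and the difference was 0.10 (interval -0.07 to 0.26). Apln, the X-linked tip cell ligand of Aplnr, differed by 0.14 with overlap. Esm1, another tip cell gene, lay below the guide to background and differed by 0.04.

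**Figure D3:**
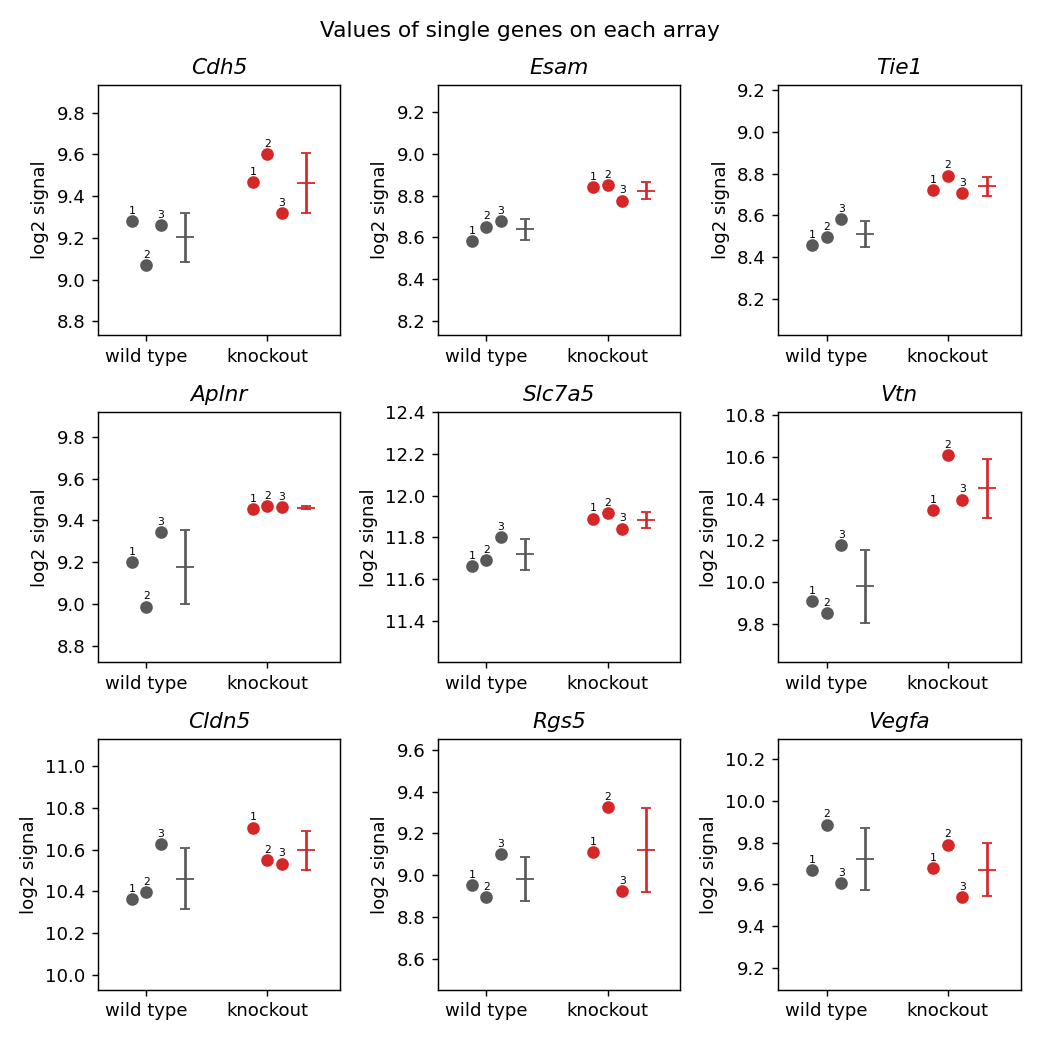
Log2 signal of 9 genes on each array (points, numbered by replicate), with the mean and SD of the 3 arrays a group beside them. Every panel spans the same number of log2 units. Cdh5, Esam, Tie1, Aplnr, Slc7a5 and Vtn do not overlap between groups, while Cldn5, Rgs5 and Vegfa do.

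The 5 barrier transporters all lay above 0, with a median of 0.10. Slc7a5 (cluster 10582275, chromosome 8), the large neutral amino acid transporter, read 11.66, 11.69 and 11.80 in wild type and 11.89, 11.92 and 11.84 in knockout. Its groups did not overlap, and its difference was 0.16 (interval -0.0043 to 0.33) with an unadjusted limma p of 0.0549. Slc2a1 (cluster 10507594), the glucose transporter of barrier endothelium, read 11.78, 11.82 and 11.89 against 11.84, 11.98 and 11.94. Mfsd2a (cluster 10516064), the lysophospholipid transporter that holds down transcytosis, read 10.79, 10.80 and 10.98 against 10.93, 10.95 and 10.89. Wild-type replicate 3 lay among the knockout arrays for Slc2a1 and was the highest of all 6 arrays for Mfsd2a. The differences were 0.10 (interval -0.08 to 0.27) for Slc2a1 and 0.07 (interval -0.11 to 0.25) for Mfsd2a. The efflux pump gene Abcb1a (cluster 10519527, chromosome 5) read 7.15, 7.08 and 7.23 in wild type and 7.40, 7.51 and 7.12 in knockout. Knockout replicate 3 fell into the wild-type range, and the difference was 0.19 (interval -0.07 to 0.44). Abcg2, a second efflux pump, differed by 0.03 and was -0.03 when wild-type replicate 3 was left out and -0.04 when knockout replicate 1 was.

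Pericyte genes were all above 0, 6 of 6, with a median of 0.12, or 0.11 over the 5 genes without Vtn. Leaving out knockout replicate 2 lowered these medians to 0.07 and 0.05. Vtn (cluster 10379190, chromosome 11) encodes vitronectin, an adhesive glycoprotein made by brain pericytes. It read 9.91, 9.85 and 10.18 in wild type and 10.34, 10.61 and 10.40 in knockout. The lowest knockout array exceeded the highest wild-type array by 0.17. Mean levels were 9.98 ± 0.17 and 10.45 ± 0.14 (SD, n = 3 each), so that the knockout signal was 139% of wild type with an interval from 116% to 166%. The difference of 0.47 was the largest of the 48, with an unadjusted limma p of 0.00303 and an adjusted p of 1 over all genes. It ran from 0.39 without knockout replicate 2 to 0.57 without wild-type replicate 3, and was 0.63 with the sex term.

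The other pericyte genes differed less. Pdgfrb (cluster 10456046, chromosome 18), the receptor that draws pericytes to vessels, read 9.36, 9.40 and 9.54 in wild type and 9.35, 9.64 and 9.59 in knockout. Knockout replicate 1 was the lowest of the 6 arrays, and the difference was 0.09 (interval -0.13 to 0.32). Rgs5 (cluster 10351455, chromosome 1), a G protein regulator that marks pericytes, read 8.95, 8.89 and 9.10 against 9.11, 9.33 and 8.92. Here knockout replicate 3 fell among the wild-type arrays, and the difference of 0.14 was 0.04 without knockout replicate 2. Kcnj8 (cluster 10549102, chromosome 6), a pore subunit of ATP-sensitive potassium channels, read 8.72, 8.66 and 8.82 against 8.84, 8.85 and 8.82. Wild-type replicate 3 and knockout replicate 3 were 0.0063 apart, and the difference was 0.11 (interval -0.06 to 0.27). Its partner subunit Abcc9, encoded next to it, differed by 0.21 with overlap. The aminopeptidase Anpep differed by 0.06.

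**Figure D4:**
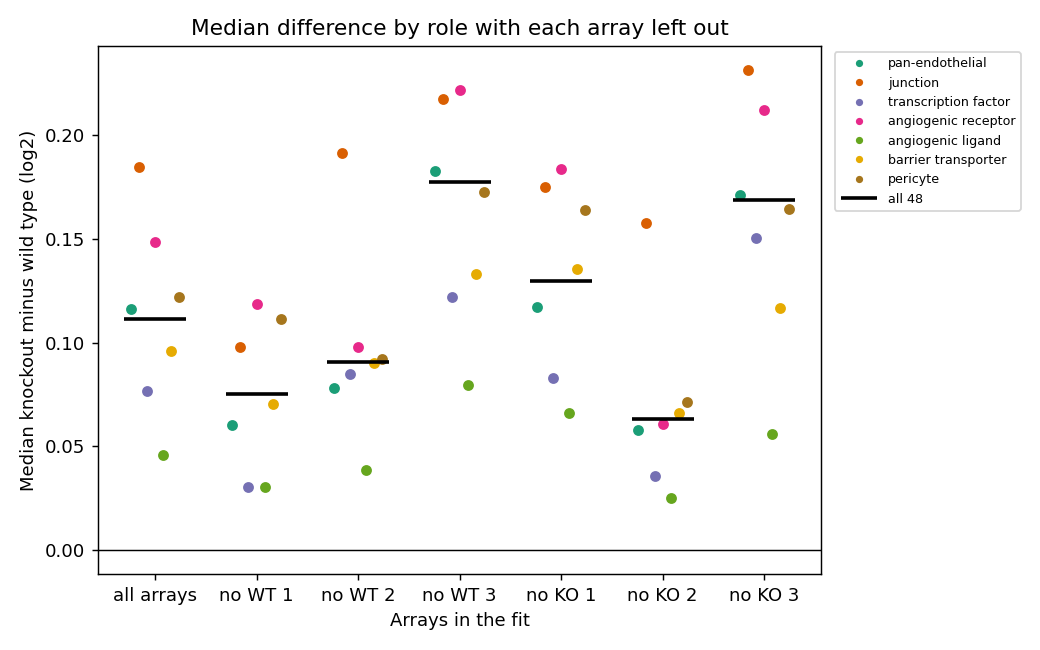
Median difference (knockout minus wild type, log2) of each role, as coloured points, and of all 48 genes, as black bars, with all arrays and with each array left out. All points lie above 0, and those without knockout replicate 2 or wild-type replicate 1 are lower than those without wild-type replicate 3 or knockout replicate 3.

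Further vessel genes outside the 48 had medians closer to 0. Of 40 other endothelial genes 27 lay above 0, with a median of 0.05, and 2 of the 40 reached an unadjusted p under 0.05, both higher (0.933% of all genes did). Leaving out wild-type replicate 1 brought the median to 0.02, and leaving out wild-type replicate 3 to 0.09. The largest differences among them were those of Adgrf5 (0.30), an adhesion receptor of endothelium, the membrane protein gene Tm4sf1 (0.23) and Cd93 (0.20). Plvap, the diaphragm protein of fenestrated and immature vessels that barrier formation switches off, read 6.85, 7.24 and 7.34 in wild type and 6.83, 7.35 and 7.11 in knockout. Its groups overlapped fully, and it differed by -0.05 with an interval from -0.42 to 0.33.

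Other barrier and transport genes lay above 0 in 22 of 25 cases, with a median of 0.06 and 4 of the 25 at an unadjusted p under 0.05, all higher (0.933% of all genes). The amino acid transporter gene Slc38a5 differed by 0.28, and the caveolin genes Cav1 and Cav2 by 0.28 each (0.10 for Cav1 without wild-type replicate 1). Genes of the Wnt signal that induces the barrier were near level, with 12 of 19 above 0 and a median of 0.01. Wnt7a differed by -0.02, Wnt7b by -0.04 and Gpr124, now Adgra2, by 0.05, while Foxf2, a factor of central nervous system pericytes, differed by 0.15, Wls by 0.13 and Fzd6 by 0.13. Other pericyte and mural genes had 13 of 19 above 0 and a median of 0.03 that was -0.04 without wild-type replicate 1. Tbx18 differed by -0.14, S1pr3 by 0.14 and Gpr4 by 0.13. Hypoxia response genes, which accompany Vegfa when oxygen is short, had 8 of 15 above 0 and a median of 0.01, with Car9 at -0.21, Adm at 0.15 and Ero1a at -0.13. The hypoxia median was -0.05 when wild-type replicate 3 was left out, and Plvap (0.08), Wnt7a (0.03) and Wnt7b (0.01) also turned sign with 1 array left out. None of these genes passed over all genes.

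Markers of other cells that the dissection could hold were set beside these values. Meningeal and fibroblast genes, the cells around the cord that share Pdgfrb and Anpep with pericytes, lay above 0 in 3 of 20 cases, with a median of -0.15. In replicate order their mean deviations were 0.06, 0.15 and 0.02 in wild type and -0.13, 0.02 and -0.13 in knockout. With the sex term their median was -0.07. Their summed signal ran from 6379 to 6922 in wild type and from 6299 to 6899 in knockout, on the linear scale, and 3 of the 20 were below the guide to background. Postn differed by -0.53 (0.02 without wild-type replicate 1), Slc6a13 by -0.46 and decorin (Dcn), against the trend, by 0.38. Microglia and macrophage genes had 12 of 19 above 0 and a median of 0.05, with summed signals of 4216 to 4641 in wild type, 4240 to 4855 in knockout and 5 genes below the guide. Their largest differences were Fcgr3 at 0.20, Aif1 at -0.19 and F13a1 at -0.14. Blood cell genes had 6 of 15 above 0 and a median of -0.02, with summed signals of 2566 to 2998 in wild type, 2402 to 3030 in knockout and 5 genes below the guide. Ppbp differed by -0.28, Klf1 by -0.16 and Gata1 by 0.15. The microglial median was -0.03 without wild-type replicate 1 and the blood cell median 0.03 without knockout replicate 2. Fcgr3 turned to -0.0077 without knockout replicate 3 and Gata1 to -0.02 without wild-type replicate 1. The part of these cells in the vessel gene differences was not tested.

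Spinal cord identity genes had 11 of 12 above 0 with a median of 0.05, Hoxc10 at 0.14, Sox2 at 0.12 and Hoxd10 at 0.09. Forebrain genes had 2 of 5 above 0 with a median of -0.08, Otx1 at -0.18, Emx2 at 0.16 and Six3 at -0.09. Without wild-type replicate 3 the forebrain median was 0.08 and Six3 stood at 0.01, and without wild-type replicate 1 Emx2 stood at -0.05.

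**Figure D5:**
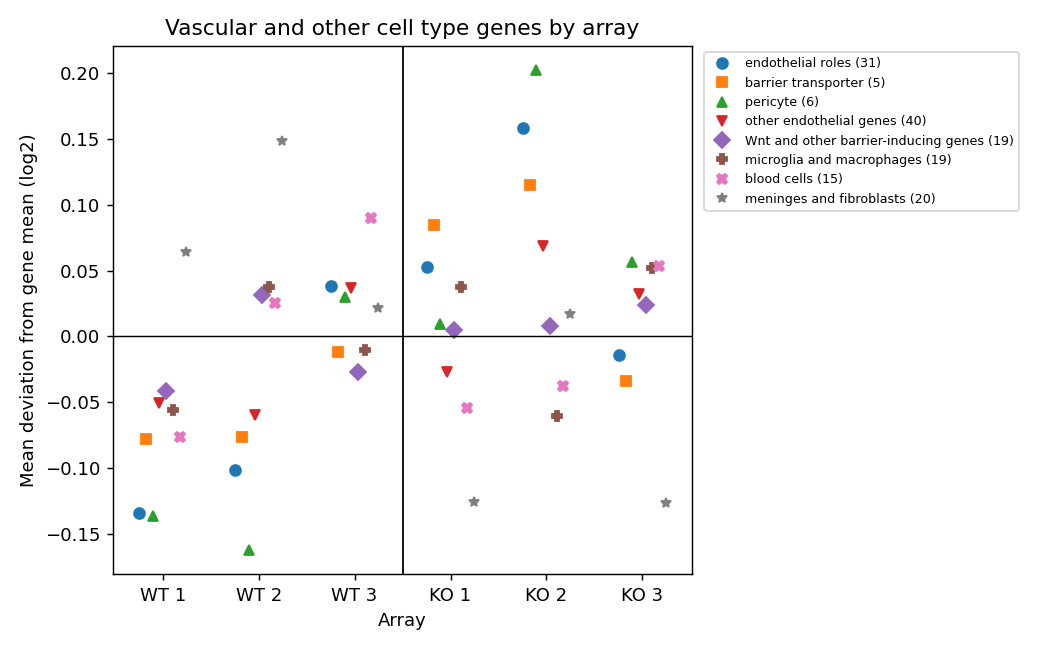
Mean deviation from the gene mean (log2) on each array for vessel gene groups and for markers of other cells, with the number of genes in brackets. The endothelial roles (31 pan-endothelial, junction, factor and receptor genes), barrier transporters and pericyte genes are lowest in wild-type replicates 1 and 2 and highest in knockout replicate 2, where the endothelial roles reach 0.16 and the pericyte genes 0.20. Meningeal genes are highest in wild-type replicate 2, at 0.15.

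On each array the endothelial roles and the pericyte genes deviated in a similar order. The 31 genes of the endothelial roles averaged -0.13, -0.10 and 0.04 in wild type and 0.05, 0.16 and -0.01 in knockout. The 6 pericyte genes averaged -0.14, -0.16 and 0.03 in wild type and 0.0092, 0.20 and 0.06 in knockout. Barrier transporters averaged -0.08, -0.08 and -0.01 in wild type and 0.08, 0.11 and -0.03 in knockout. In all 3 sets knockout replicate 2 was highest, and wild-type replicate 3 was the highest wild-type array.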

How the data were processed

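The deposited table holds log2 values of 35557 transcript clusters on 6 arrays, which the authors computed with RMA (per the submitters' processing notes, version not stated). RMA equalises the distribution of signals between arrays and compresses small differences, and it can hide a shift shared by most genes. Per the labels' protocols, RNA was column-purified, amplified and biotin-labelled. The platform annotation gave 1 gene symbol to 21789 clusters, several to 1621, and did not list 12147. Symbols were updated through RefSeq (GRCm38.p6), which matched 19856 of 19938 genes, and the cluster of highest mean stood for a gene. Dim genes were kept.

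Groups were compared with limma 3.58.1 in R 4.3.3 (lmFit and eBayes, group as the only term, two-sided, Benjamini-Hochberg over all genes), and single genes also by an exact permutation test in scipy 1.17.1. The fit was tested on simulated data, where part of the changed genes did not pass. The number of arrays limits precision. Members, roles and lists were chosen with earlier results of these data known. Of 202 symbols on 10 other lists, 189 were measured. Members given with all arrays are those whose groups do not overlap and 16 fixed by name. From each other list the 3 largest differences are named. Plvap, Wnt7a, Wnt7b and Gpr124 were fixed by name, and of these Plvap is given with all arrays. The main fit did not pair arrays by the authors' replicate numbers. Alternatives were each array left out, a replicate block, a sex term, 2 normalizations, an intensity trend, array weights, the mean of a gene's clusters and a filter on dim genes. Figures were drawn with matplotlib 3.10.9.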

Additional observations from a re-analysis of the deposited data

How the results depend on the processing

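No member passed the test in any of the 14 alternatives, and the smallest adjusted p of a member was 0.0546, for array weights. The sign was kept in all of them for 35 of the 48 genes. Some alternatives could not turn a sign, as they leave the difference of a member unchanged. These are the replicate block, the intensity trend, the mean of a gene's clusters and the filter on dim genes. With each array left out, 0 to 4 of all genes passed, the 4 without knockout replicate 2. With the sex of the embryos as a term, so that 1 knockout array faces the wild-type ones, the median was 0.20 over all 48 genes, 0.19 for transcription factors, 0.29 for receptors, 0.0903 for ligands and 0.28 for pericyte genes. With array weights, which lean on wild-type replicate 2 (weight 6.39, against 0.271 for replicate 3) and whose estimation stopped before it converged, it was 0.21 for pan-endothelial genes, 0.29 for receptors, 0.0908 for ligands and 0.23 for pericyte genes. The cause was not tested. Members at an unadjusted p under 0.05, all higher, numbered 7 with all arrays. They numbered 1 without knockout replicate 2 (0.532% of all genes higher), 17 without wild-type replicate 3 (4.12%), 11 without knockout replicate 3 (0.767%), 3 without knockout replicate 1 (0.622%), 4 and 2 without wild-type replicates 1 and 2 (1.19% and 0.617%), 10 with the sex term (0.537%) and 30 with array weights (9.81%). Other signs that turned were those of Clec14a (0.12 with the sex term, 0.0076 with renewed quantile normalization, 0.032 with array weights), Sox17 (0.042), Vegfa (0.0695) and Esm1 (-0.049) with the sex term, and Ramp2 (-0.0026) and Abcg2 (-0.0204) with array weights. With single arrays left out, values ran from -0.0095 to 0.26 for Icam2, -0.0337 to 0.12 for Nos3, -0.0268 to 0.17 for Mmrn2, -0.0777 to 0.0323 for Clec14a, -0.15 to 0.0234 for Sox17, -0.0326 to 0.21 for Sox7, -0.0295 to 0.0698 for Tal2, -0.0725 to 0.19 for Notch4, -0.0319 to 0.0979 for Angpt1, -0.11 to 0.031 for Vegfa, -0.0112 to 0.12 for Esm1 and -0.0434 to 0.12 for Abcg2. Deviations of same-numbered arrays correlated at 0.345, -0.0746 and 0.449 for replicates 1, 2 and 3. The best-matching knockout array was the same-numbered one for wild-type replicates 1 and 3, but knockout replicate 1 for wild-type replicate 2. Whether the replicate numbers pair the arrays is thus not settled. In the replicate block each number holds 1 array of each group, so it cannot move a difference. Its median of 0.11 was thus fixed in advance. With the block 0 genes passed the test, and 9 members had an unadjusted p under 0.05 (1.45% of all genes higher). The guide to background limits Clec14a, Tal2 and Esm1, which the filter on dim genes removed. Angpt1 and Angpt2 lie close to the guide and were kept.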
